A study of Homo sapiens with 18 samples.

Results

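The 43 genes described here code for proteins that find and repair double-strand breaks and for proteins of the Fanconi anemia pathway. They were taken by symbol from the deposited table of normalized read counts, which held 56269 genes, and all 43 symbols were found. Of these, 42 had a mean of at least 10 normalized reads over all libraries and were tested with 13686 genes in all. The exception was NHEJ1, the end-joining factor also called XLF, with at most 4.35 normalized reads in any library. In the annotation used here, 65.4% of the exonic bases of NHEJ1 lie under a read-through gene on the same strand, AC068946.1, so its level could not be judged.

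RNA was sequenced from IMR90 cells, a widely used line of human primary lung fibroblasts, in 6 groups of 3 libraries. Cells were kept for 6 h with PBS, with cNSF-HA or with fNSF-HA at 20 μg/ml. The first of these HA preparations (cNSF below) is hyaluronan secreted by naked mole-rat skin fibroblasts and mixed with heat-inactivated hyaluronidase, and the second (fNSF) is the same polysaccharide after partial digestion with the active enzyme. The HA was then taken away, and 9 of the 18 libraries came from cells given 200 μM tBHP, an organic peroxide that causes oxidative stress, for 1 h and collected 6 h after it was added, whereas the other 9 came from cells collected at the end of the pre-incubation. The groups therefore also differ in the time of collection, and the tBHP response cannot be told apart from that difference in time. All groups share 1 cell line, and the study calls its replicates biological, while the labels do not say whether they were separate cultures. The p-values measure the spread between these libraries.

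A double-strand break is bound by the MRE11-RAD50-NBN complex, which activates the kinase ATM, while single-stranded DNA exposed by resection activates ATR. Broken ends are then joined directly by the Ku proteins, DNA-dependent protein kinase and ligase IV, or resected and copied from the sister chromatid by BRCA1, BRCA2 and their partners, a route that cells use mainly in S and G2 phase. The Fanconi anemia core complex ubiquitinates FANCD2 and FANCI where crosslinks block replication, which hands the lesion to the same recombination enzymes.

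The libraries held 20261103 to 26287660 reads on genes. The collagen genes and the other fibroblast markers were detected in every library (10 of 10), while the defining epithelial, endothelial and immune genes were at or near 0, apart from KRT19 at 76.6 to 196 normalized reads and VWF at 3.73 to 25. KRT19 responded to tBHP by -0.46, -0.49 and -0.60 on the log2 scale in PBS, cNSF and fNSF cells and was called in fNSF cells, and VWF by 1.32, 0.72 and 1.18, called in PBS and fNSF cells. Their part in the results was not tested. Replicates lay further apart after tBHP, with a median SD within groups of 0.206 on the log2 scale against 0.0761 without tBHP. Replicate 2 of the fNSF group after tBHP stood furthest from the other libraries of its group: its median absolute log2 difference from them was 0.315, and 33 of the 42 repair genes were above the mean of the others. Across genes, that difference ran against the GC content of the transcripts (Spearman's rho -0.80). Replicate 3 of the same group lay 0.269 from the others, with a rho of 0.78.

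After tBHP, more repair genes were lower than higher in all 3 pre-incubations. In PBS cells 24 of the 42 tested genes fell and 5 rose (limma on log2(normalized reads + 1), Benjamini-Hochberg adjusted p under 0.05 over all 13686 genes), against a background of 26.9% of all genes lower and 24.2% higher. In cNSF cells 25 fell and 5 rose, against 26.8% lower and 24.0% higher among all genes. In fNSF cells 23 fell and 4 rose, against 22.7% lower and 19.2% higher, and a fit of only these 2 groups called 14 lower (16.7% of all genes). The lower share of the repair genes was thus 57.1%, 59.5% and 54.8%, and the higher share 11.9%, 11.9% and 9.52%. Their median log2 response was -0.35 in PBS cells, -0.27 in cNSF cells and -0.28 in fNSF cells, where the median of all genes was 0.00, 0.00 and -0.03. In a bulk sample, fewer cells of a kind and less RNA per cell cannot be told apart.

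The 3 responses, which rest on separate libraries, had the same sign for 39 of the 42 genes (92.9%, against 76.3% of all genes). A group of 19 genes (45.2%, against 17.9% of all genes) fell in all 3 pre-incubations: MRE11A, NBN and ATR among the sensors, RBBP8 and BLM of end resection, BARD1, BRIP1, BRCA2, XRCC2 and RAD54B of homologous recombination, XRCC5, PRKDC, XRCC4 and LIG4 of end joining, and FANCA, FANCB, FANCI, FANCL and FANCM of the Fanconi pathway. Only 4 genes (9.52%, against 14.6% of all genes) rose in all 3, namely TP53BP1, RAD52, RAD54L and DCLRE1C. Another 11 fell and 2 rose in 1 or 2 of the pre-incubations, and 6 passed the test in none: CHEK1, CHEK2, EXO1, RAD51C, RAD51D and FANCG. No gene was called in opposite directions. A call in 1 pre-incubation and not in another is no sign of a difference between them, which is tested further on. Over the 29 alternative settings, 12 genes kept all 3 calls in every one: NBN, ATR, BARD1, BRIP1, XRCC2, PRKDC, LIG4, FANCB and FANCL, which fell, and TP53BP1, RAD52 and DCLRE1C, which rose. At least 1 call of 15 others ended when a single library was left out (MRE11A, RAD50, RBBP8, BLM, BRCA1, PALB2, XRCC3, RAD54B, RAD54L, XRCC5, FANCA, FANCC, FANCE, FANCF and FANCM). Removing each library's trend with GC content and transcript length, called the GC and length trend below, changed a call of 25 genes, whose values under that setting stand beside their responses.

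**Figure D1:**
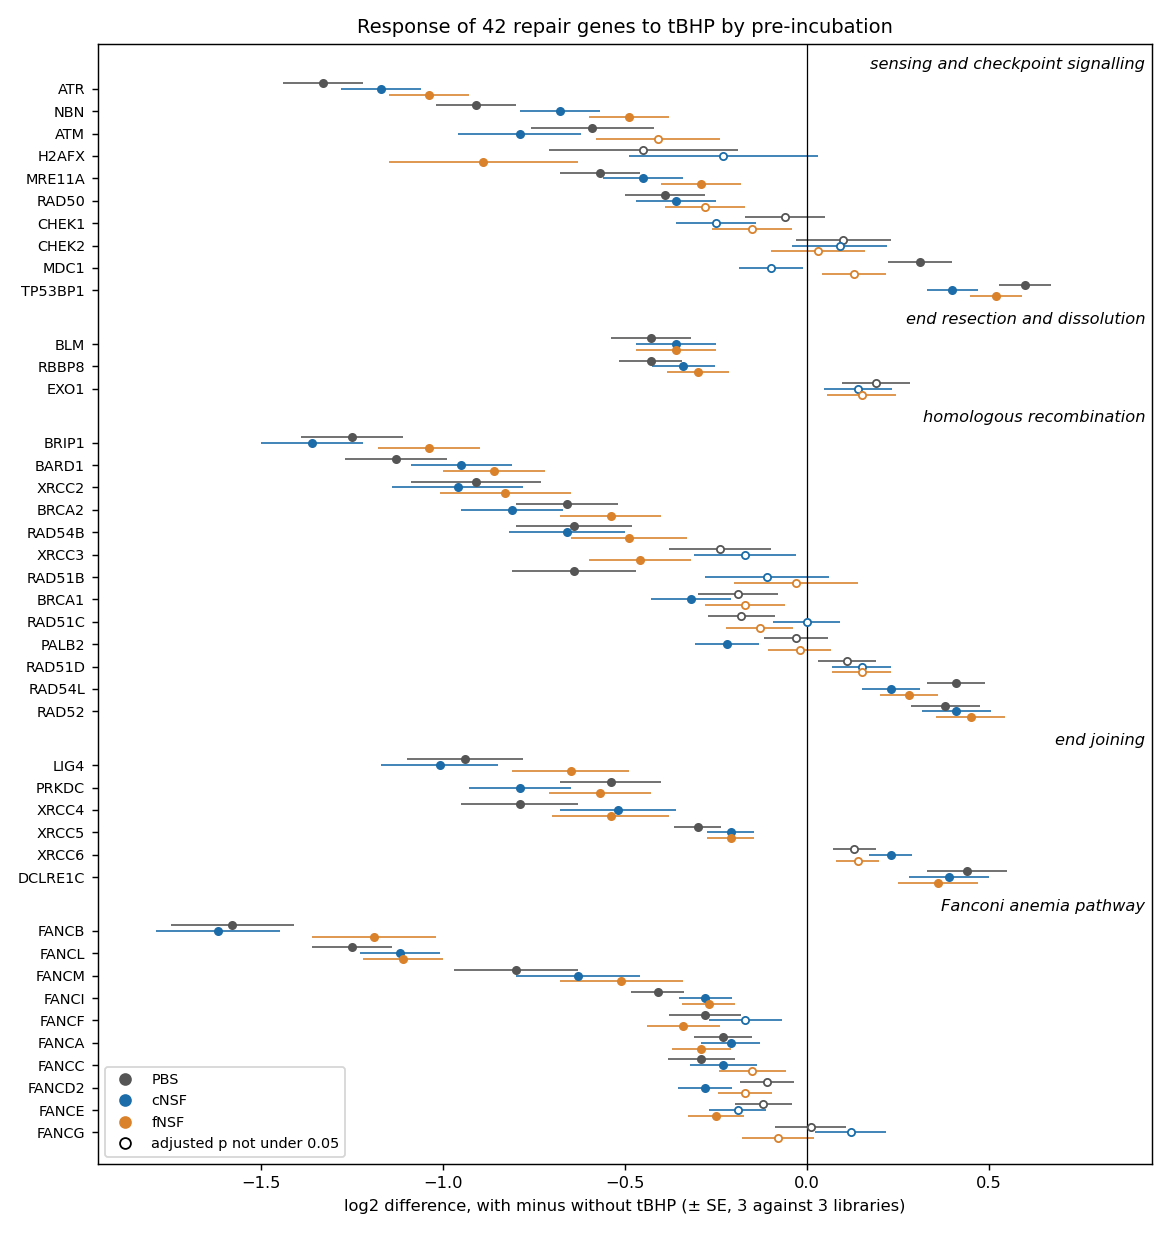
The log2 response to tBHP (x axis, ± SE, 3 against 3 libraries) of the 42 tested repair genes in cells kept with PBS, cNSF or fNSF, grouped by role, with open points where the adjusted p was not under 0.05. The SE comes from the limma fit of all 18 libraries. Most points lie left of 0, down to -1.62 for FANCB in cNSF cells, and TP53BP1 lies furthest right at 0.60 in PBS cells.

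The promoters of the 3 genes with the largest mean fall (FANCB, BRIP1 and ATR) and the 3 with the largest mean rise (TP53BP1, RAD52 and DCLRE1C) are shown because the results turn on these members. Each line gives the 250 bases before the RefSeq start site on GRCh38.p14, 5' to 3' along the gene, with CCAAT boxes (CCAAT) and GC boxes (GGGCGG) on either strand in capitals. All 6 genes lie on the minus strand, and the windows are chrX:14873070-14873319 (FANCB), chr17:61863529-61863778 (BRIP1), chr3:142578734-142578983 (ATR), chr15:43510641-43510890 (TP53BP1), chr12:949695-949944 (RAD52) and chr10:14954433-14954682 (DCLRE1C).
FANCB: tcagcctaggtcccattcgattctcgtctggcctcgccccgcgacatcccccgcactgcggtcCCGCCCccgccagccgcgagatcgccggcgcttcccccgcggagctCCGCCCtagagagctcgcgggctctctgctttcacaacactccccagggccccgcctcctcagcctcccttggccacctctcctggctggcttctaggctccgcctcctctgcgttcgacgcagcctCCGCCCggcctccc
BRIP1: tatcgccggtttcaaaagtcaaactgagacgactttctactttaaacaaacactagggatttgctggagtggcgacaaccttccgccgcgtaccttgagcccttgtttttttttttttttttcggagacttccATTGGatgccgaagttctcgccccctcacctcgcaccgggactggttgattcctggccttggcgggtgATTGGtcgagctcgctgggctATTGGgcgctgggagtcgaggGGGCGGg
ATR: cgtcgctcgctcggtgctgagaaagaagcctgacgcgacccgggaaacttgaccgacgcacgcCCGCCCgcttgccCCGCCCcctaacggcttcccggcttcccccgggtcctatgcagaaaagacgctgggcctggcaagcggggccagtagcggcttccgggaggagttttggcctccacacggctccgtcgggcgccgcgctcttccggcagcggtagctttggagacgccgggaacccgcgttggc
TP53BP1: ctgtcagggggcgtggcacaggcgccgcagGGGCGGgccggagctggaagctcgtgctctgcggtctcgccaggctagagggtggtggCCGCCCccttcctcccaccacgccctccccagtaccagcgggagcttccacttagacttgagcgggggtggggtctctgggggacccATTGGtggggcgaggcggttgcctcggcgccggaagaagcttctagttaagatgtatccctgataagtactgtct
RAD52: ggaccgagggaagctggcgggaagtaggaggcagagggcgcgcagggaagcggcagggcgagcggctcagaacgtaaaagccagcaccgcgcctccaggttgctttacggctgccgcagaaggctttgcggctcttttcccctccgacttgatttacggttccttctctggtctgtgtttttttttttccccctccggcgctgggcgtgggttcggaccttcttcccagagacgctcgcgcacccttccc
DCLRE1C: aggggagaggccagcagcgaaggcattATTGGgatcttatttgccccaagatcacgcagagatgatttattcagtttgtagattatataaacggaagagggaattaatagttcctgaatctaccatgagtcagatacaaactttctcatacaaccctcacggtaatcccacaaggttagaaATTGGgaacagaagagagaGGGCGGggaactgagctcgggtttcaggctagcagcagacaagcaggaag

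These windows did not sort by direction of response: CCAAT boxes stand before BRIP1, which fell, and before TP53BP1 and DCLRE1C, which rose, and the RAD52 window holds neither motif. RefSeq windows running from 250 bases before to 50 after the start were matched for 38 of the 43 genes. A CCAAT box was in 47.4% of these 38, as against 35.7% of the windows of all 27305 symbols and 36.8% of those of tested genes. A GC box was in 73.7%, against 44.6% of all windows and 70.8% of those of tested genes. The E2F letters TTTCCCGC were found before XRCC2, FANCC and FANCD2 (7.89%, against 1.66% of all and 2.69% of tested genes). The ETS letters CCGGAAGT stood in 6 windows (15.8%, against 4.44% and 9.13%), those of MRE11A, RAD50, PALB2, BRCA2, LIG4 and FANCD2. The letters CCTGCG, a motif given for the intracellular domain of the HA receptor CD44, were in 39.5% of the repair genes, 23.5% of all and 36.2% of tested genes. The YY1 letters ATGGCGGC were in 0 of the 38, against 3.21% of all and 6.53% of tested genes, and the CHR letters TTTGAA in 13.2%, against 15.4% and 9.69%. The second E2F form TTTGGCGC was in 2.63%, against 0.659% and 1.14%. The NRF1 letters GCATGCGC and the CREB letters TGACGTCA were each in 7.89%, against 3.27% and 1.98% of all and 5.59% and 3.34% of tested genes. A match of letters is a description of the window and not of a bound site.

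Among the 10 genes for break sensing and checkpoint signalling, 5 fell and 2 rose in PBS cells, 5 fell and 1 rose in cNSF cells, and 4 fell and 1 rose in fNSF cells. The lower share was 50%, 50% and 40%, against 26.9%, 26.8% and 22.7% of all genes. The higher share was 20%, 10% and 10%, against 24.2%, 24.0% and 19.2%. ATR, the kinase that answers to single-stranded DNA, fell most. It had 1361, 1392 and 1359 normalized reads in the PBS libraries and 495, 625 and 522 after tBHP. In cNSF cells it had 1314, 1239 and 1315 before and 616, 580 and 522 after, and in fNSF cells 1358, 1349 and 1402 before and 657, 799 and 557 after. Every library without tBHP was above every library with it. The log2 response was -1.33 ± 0.11 (SE, n = 3 and 3) in PBS cells, -1.17 ± 0.11 in cNSF cells and -1.04 ± 0.11 in fNSF cells (limma, adjusted p = 2.24e-08, 1.27e-07 and 5.52e-07). Each SE here and below comes from the limma fit of all 18 libraries, not from the compared groups alone. A pseudogene on the opposite strand covers 16.4% of the exonic bases of ATR, and the libraries do not keep the strand.

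NBN and MRE11A, both subunits of the complex that first binds a break, fell in the 3 pre-incubations. NBN went from 1771, 1856 and 1793 normalized reads to 851, 1119 and 927 in PBS cells, from 1658, 1698 and 1641 to 1059, 1075 and 983 in cNSF cells, and from 1766, 1788 and 1850 to 1280, 1539 and 1068 in fNSF cells. The groups with and without tBHP did not overlap. Its log2 responses were -0.91 ± 0.11, -0.68 ± 0.11 and -0.49 ± 0.11 in PBS, cNSF and fNSF cells. MRE11A responded by -0.57, -0.45 and -0.29, and in fNSF cells its library 2 after tBHP, at 931, overlapped the libraries without tBHP (895 to 977). With the GC and length trend removed, MRE11A had -0.14, 0.01 and -0.02 and was called in none, while NBN was called in all 3 (-0.44, -0.23 and -0.21). RAD50, the remaining subunit, fell in PBS (-0.39) and cNSF cells (-0.36), and its response in fNSF cells was -0.28 (adjusted p = 0.058). It was called lower in all 3 with a replicate block, and when replicate 2 of any single group after tBHP was left out. Without cNSF replicate 3 after tBHP a call of RAD50 ended. With the trend removed RAD50 had -0.12, 0.01 and -0.09, with no call. As much as 79.7% of its exonic bases are shared with other annotated genes, AC116366.3 on the same strand and TH2LCRR on the opposite one.

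ATM, the kinase that the complex activates, fell in PBS (-0.59 ± 0.17) and cNSF cells (-0.79 ± 0.17), and its log2 response in fNSF cells was -0.41 ± 0.17 (adjusted p = 0.0576). With a replicate block ATM was called lower in all 3, as it was without fNSF replicate 2 or cNSF replicate 3 after tBHP. The kinases that ATM and ATR act on gave no call: CHEK1 responded by -0.06, -0.25 and -0.15, and CHEK2 by 0.10, 0.09 and 0.03, in PBS, cNSF and fNSF cells. CHEK1 was nearest in cNSF cells (limma, adjusted p = 0.0598) and gained a call under 5 of the 29 alternative settings. These were the fit of only the compared groups, 3 left-out libraries and removal of the GC and length trend. Once the GC and length trend was removed, CHEK1 was called higher in PBS cells (0.22, adjusted p = 0.00431), with 0.02 and -0.00 in the others. Their libraries with and without tBHP overlapped in each pre-incubation, except for CHEK1 in cNSF cells (1178, 1234 and 1300 before, 969, 1064 and 1085 after). H2AFX codes for the histone variant H2AX, which is phosphorylated around breaks. It was the most variable member after tBHP, with 1948, 902 and 3044 normalized reads in fNSF cells against 3471, 3066 and 3225 before. Its fall there, -0.89 ± 0.26 (adjusted p = 0.0113), rested largely on library 2, without which it was -0.42 (adjusted p = 0.0232). The responses of H2AFX in PBS and cNSF cells were -0.45 ± 0.26 and -0.23 ± 0.26, neither called by limma in the fit of all libraries. A fit of only the 2 groups of a pre-incubation called H2AFX in PBS and not in fNSF cells, and after removal of the GC and length trend it was called lower in all 3 (-0.85, -0.71 and -0.93).

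TP53BP1, which holds back resection and favours end joining, had the largest mean rise of all members. Its libraries held 1848, 1795 and 1844 normalized reads in PBS cells and 2561, 2808 and 2962 after tBHP. In cNSF cells they held 1871, 1902 and 1863 before and 2683, 2547 and 2237 after, and in fNSF cells 1857, 1874 and 1933 before and 2760, 2811 and 2583 after. All libraries with tBHP were above all without it. The rises were 1.52-fold, 1.32-fold and 1.44-fold in PBS, cNSF and fNSF cells (log2 0.60 ± 0.071, 0.40 ± 0.071 and 0.52 ± 0.071, adjusted p = 2.03e-06, 0.000155 and 1.19e-05). TUBGCP4 on the opposite strand covers 28.7% of its exonic bases. MDC1, the scaffold that reads phosphorylated H2AX, rose in PBS cells (0.31 ± 0.088, adjusted p = 0.00737), where 311, 325 and 319 normalized reads became 416, 376 and 392. Its response was -0.10 ± 0.088 in cNSF cells (-0.01 without replicate 3 after tBHP) and 0.13 ± 0.088 in fNSF cells, without a call. Removing the GC and length trend left the response in PBS cells at 0.13 and not called (adjusted p = 0.111).

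**Figure D2:**
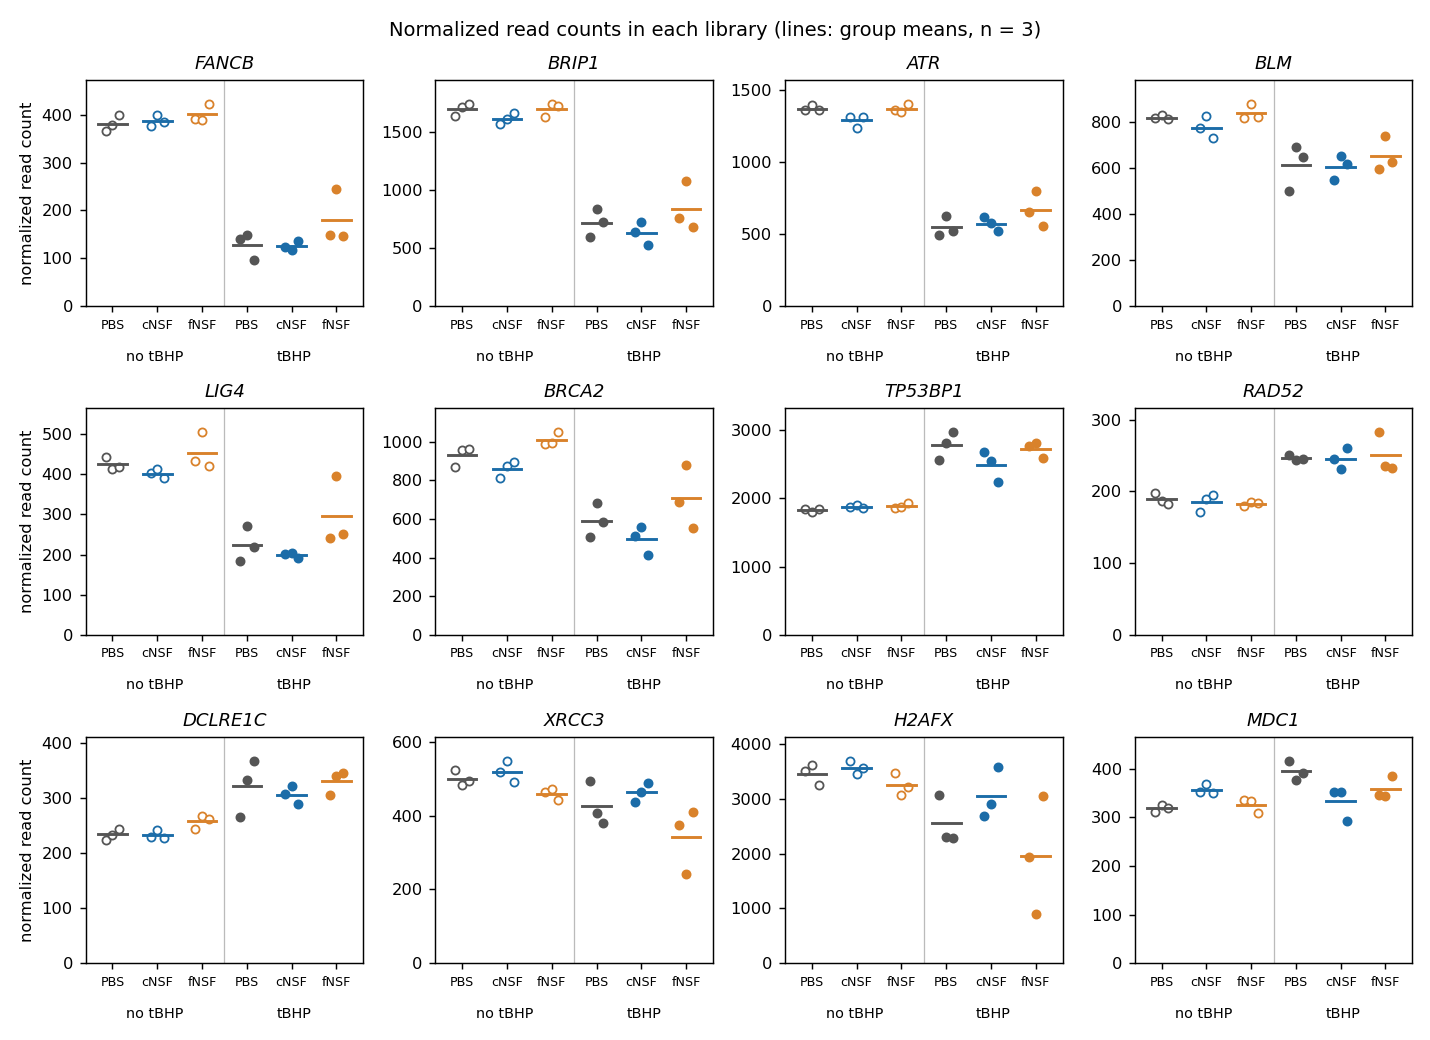
Normalized read counts (y axis, from 0) of 12 repair genes in each library, with lines at the means of 3 libraries, for PBS, cNSF and fNSF cells without tBHP (open points) and with tBHP (filled points). FANCB, BRIP1 and ATR drop in all pre-incubations and TP53BP1 and RAD52 rise, while H2AFX ranges from 902 to 3044 within fNSF cells after tBHP.

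Of the 3 resection and dissolution genes, 2 (66.7%) fell in every pre-incubation, where 26.9%, 26.8% and 22.7% of all genes fell. BLM, the helicase that unwinds resected ends and dissolves joined chromatids, held 818, 833 and 813 normalized reads in PBS cells and 503, 691 and 649 after tBHP. It held 776, 826 and 731 in cNSF cells and 551, 654 and 618 after, and 820, 880 and 823 in fNSF cells and 597, 739 and 630 after. Libraries with and without tBHP did not overlap within a pre-incubation, and the log2 responses were -0.43 ± 0.11, -0.36 ± 0.11 and -0.36 ± 0.11. RBBP8, the protein CtIP that starts resection, responded by -0.43, -0.34 and -0.30. Without the GC and length trend RBBP8 had -0.06, -0.03 and -0.11 and was called in none, and BLM (-0.14, -0.04 and -0.19) was called in fNSF cells alone. EXO1, the exonuclease that extends resection, had positive responses that were not called (0.19, 0.14 and 0.15, adjusted p = 0.101, 0.219 and 0.211), but it was called higher in all 3 with that trend removed (0.42, 0.35 and 0.26), and edgeR called it in PBS cells.

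Of the 13 genes of homologous recombination, 6, 7 and 6 fell and 2 rose in PBS, cNSF and fNSF cells. The lower share was 46.2%, 53.8% and 46.2%, against 26.9%, 26.8% and 22.7% of all genes. The higher share was 15.4% each time, against 24.2%, 24.0% and 19.2%. BRIP1, a helicase that binds BRCA1, fell furthest, from 1637, 1713 and 1737 normalized reads to 596, 833 and 725 in PBS cells. In cNSF cells it went from 1562, 1609 and 1658 to 636, 725 and 529, and in fNSF cells from 1627, 1735 and 1718 to 755, 1079 and 678. The groups stood far apart each time. Its log2 responses were -1.25 ± 0.14, -1.36 ± 0.14 and -1.04 ± 0.14 (adjusted p = 1.5e-06, 6.2e-07 and 1.49e-05), so that after tBHP its level was 0.42, 0.389 and 0.485 times that before. BARD1, which forms a ubiquitin ligase with BRCA1, fell to 0.456, 0.518 and 0.552 times its level, whereas BRCA1 itself was called only in cNSF cells (-0.32 ± 0.11, adjusted p = 0.0201), with -0.19 and -0.17 in PBS and fNSF cells. In cNSF cells BRCA1 was at 0.01 with the GC and length trend removed. PALB2, which links BRCA1 to BRCA2, also had a call in cNSF cells alone (-0.22), with -0.03 and -0.02 in the others. That call ended under edgeR and when any 1 of 10 libraries was left out, and with the trend removed PALB2 had -0.02 in cNSF cells and was called higher in PBS cells (0.18, adjusted p = 0.0302).

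BRCA2 is a central mediator of strand exchange. It had 869, 956 and 962 normalized reads in PBS cells, 811, 874 and 893 in cNSF cells and 987, 993 and 1047 in fNSF cells. After tBHP these became 506, 683 and 585 (PBS), 513, 557 and 413 (cNSF) and 686, 880 and 552 (fNSF). Within each pre-incubation the libraries did not overlap, and the log2 responses were -0.66, -0.81 and -0.54, each ± 0.14. Once the GC and length trend was removed they were -0.13 (not called, adjusted p = 0.055), -0.18 and -0.18. Of the 5 members that work with BRCA2 in early strand exchange (XRCC2, XRCC3, RAD51B, RAD51C and RAD51D), XRCC2 fell in all 3 (-0.91, -0.96 and -0.83), while RAD51C (-0.18, 0.00 and -0.13) and RAD51D (0.11, 0.15 and 0.15) were called in none. With the trend removed, RAD51D was called higher in cNSF (0.31) and fNSF cells (0.18), as edgeR also called it, and RAD51C in cNSF cells (0.18). RAD51B, the least abundant tested member at 46.8 to 93.6 normalized reads, fell in PBS cells (-0.64 ± 0.17) and had responses of -0.11 and -0.03 in the others. XRCC3 fell in fNSF cells (-0.46 ± 0.14), but without library 2 of that group after tBHP the value was -0.23 (adjusted p = 0.0661). With the trend removed XRCC3 was called lower in all 3 (-0.57, -0.49 and -0.47), and edgeR called it in none. Another gene on the opposite strand, KLC1, covers 76.7% of the exonic bases of XRCC3.

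RAD52, which anneals single strands, and RAD54L, a motor protein of strand exchange, ran the other way. RAD52 had 197, 187 and 182 normalized reads in PBS cells and 251, 243 and 245 after tBHP. It had 171, 189 and 195 in cNSF cells and 245, 231 and 260 after, and 179, 185 and 184 in fNSF cells and 282, 235 and 233 after. No library with tBHP was as low as any library without it. The log2 responses of RAD52 were 0.38, 0.41 and 0.45, each ± 0.095 (adjusted p = 0.00268, 0.00173 and 0.00101), and those of RAD54L 0.41, 0.23 and 0.28, each ± 0.08. Its paralog RAD54B fell (-0.64, -0.66 and -0.49). After removal of the GC and length trend RAD54B had -0.16, -0.26 and -0.24 and was called in none, and RAD54L was not called in cNSF cells (0.08). Part of the exonic bases of both paralogs lies under other genes, 25.1% for RAD54L (LRRC41, opposite strand) and 59.1% for RAD54B (FSBP, same strand).

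Of the 6 tested end-joining genes, 4 (66.7%) fell in every pre-incubation, where 26.9%, 26.8% and 22.7% of all genes fell. LIG4, the ligase that seals the joined ends, had 443, 412 and 419 normalized reads in PBS cells and 183, 270 and 219 after tBHP. In cNSF cells 402, 413 and 390 became 201, 205 and 191, and in fNSF cells 434, 504 and 421 became 241, 396 and 251. Library 2 of the fNSF group after tBHP stood closest to the libraries without it, but there was no overlap within a pre-incubation. The log2 responses were -0.94, -1.01 and -0.65, each ± 0.16. Its partner XRCC4 fell by 0.79, 0.52 and 0.54 on the log2 scale, and PRKDC, the catalytic subunit of DNA-dependent protein kinase, by 0.54, 0.79 and 0.57. XRCC5 (Ku80) fell by 0.30, 0.21 and 0.21, whereas XRCC6 (Ku70) rose in cNSF cells (0.23 ± 0.059, adjusted p = 0.00343) and had 0.13 and 0.14 in PBS and fNSF cells (adjusted p = 0.0659 and 0.0581). edgeR and DESeq2 called XRCC6 in all 3, and quantile normalization ended its call. With the GC and length trend removed, XRCC5 had -0.17, -0.08 and -0.15 and XRCC4 -0.30, -0.19 and -0.31, neither called in cNSF cells (adjusted p = 0.0953 and 0.157). LIG4 had -0.41, -0.53 and -0.35 and kept its calls.

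DCLRE1C codes for Artemis, the nuclease that opens hairpin ends. It had 225, 234 and 245 normalized reads in PBS cells and 266, 334 and 368 after tBHP. In cNSF cells 229, 243 and 228 became 307, 322 and 289, and in fNSF cells 245, 267 and 263 became 306, 341 and 346. The libraries with tBHP were all higher within each pre-incubation. Its log2 responses were 0.44, 0.39 and 0.36, each ± 0.11 (adjusted p = 0.00193, 0.00555 and 0.0113).

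In the Fanconi anemia pathway, 7 of 10 genes (70%) fell in each pre-incubation and 0 rose, though not always the same 7. Over all genes, 26.9%, 26.8% and 22.7% fell and 24.2%, 24.0% and 19.2% rose in PBS, cNSF and fNSF cells. FANCB, a core complex subunit that works with the ligase FANCL, had the largest fall of all members. Its libraries held 365, 379 and 399 normalized reads in PBS cells, 376, 400 and 385 in cNSF cells and 390, 389 and 422 in fNSF cells. After tBHP they held 140, 148 and 97.4 (PBS), 123, 117 and 137 (cNSF) and 149, 245 and 146 (fNSF). All 9 libraries with tBHP were below all 9 without. FANCB thus remained at 0.334, 0.326 and 0.438 times its level (log2 -1.58, -1.62 and -1.19, each ± 0.17, adjusted p = 5.75e-07, 4.92e-07 and 1.82e-05). FANCL, the ubiquitin ligase of the complex, followed with log2 responses of -1.25, -1.12 and -1.11, each ± 0.11, and the translocase FANCM with -0.80, -0.63 and -0.51. After removal of the GC and length trend FANCM was called in PBS cells alone (-0.34, -0.13 and -0.22). VRK2 and an antisense RNA cover 19.7% of the exonic bases of FANCL.

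The remaining Fanconi genes moved less. FANCI, one of the ubiquitinated targets, fell by 0.41, 0.28 and 0.27 on the log2 scale, and FANCD2, the other, was called only in cNSF cells (-0.28), with -0.11 and -0.17 in PBS and fNSF cells. FANCA, a large core subunit, fell by 0.23, 0.21 and 0.29, with 23.6% of its exonic bases under ZNF276 on the opposite strand. FANCC fell in PBS and cNSF cells, FANCF in PBS and fNSF cells and FANCE in fNSF cells, each by less than FANCI in PBS cells. FANCG was called in none (0.01, 0.12 and -0.08). Without the GC and length trend, FANCC (-0.41, -0.28 and -0.21), FANCE (-0.37, -0.47 and -0.34) and FANCG (-0.24, -0.17 and -0.17) were called lower in all 3. FANCI was then not called in cNSF cells (-0.09), FANCD2 in none (0.02, -0.10 and -0.10), and FANCF in fNSF cells alone (-0.34). A call of FANCA also ended when any 1 of 8 libraries was left out, of FANCC with any of 11 and of FANCF with any of 6.

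The level of a member in untreated cells varied far more than its response. Per kb of exon, PBS cells held 3303 normalized reads of XRCC6, 2409 of XRCC5, 2142 of H2AFX and 930 of PRKDC, then 398 of FANCI and 293 of NBN. At the other end stood FANCC with 33.9, RAD54B with 32.2 and RAD51B with 11.8. Of the genes with the largest changes, BRIP1 was at 212 per kb, TP53BP1 at 141, ATR at 110 and FANCB at 106, while RAD52 at 45 and DCLRE1C at 37.1 were among the lowest.

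A list of 46 other genes of break and crosslink repair was chosen by function, and 44 of them were tested. In PBS cells 16 fell and 9 rose, in cNSF cells 17 fell and 11 rose, and in fNSF cells 14 fell and 8 rose. Their median log2 responses were -0.17, -0.15 and -0.11. The lower share was 36.4%, 38.6% and 31.8%, against 26.9%, 26.8% and 22.7% of all genes. The higher share lay between 18.2% (fNSF cells) and 25% (cNSF cells), against 24.2%, 24.0% and 19.2% of all genes in PBS, cNSF and fNSF cells. Of the 44 tested genes of this list, 18 were called in all 3 pre-incubations, 12 lower and 6 higher. Among all genes 17.9% were lower and 14.6% higher in all 3. The largest were falls of GEN1, a nuclease that cuts joined chromatids (-1.09, -1.25 and -0.73), DNA2, a resection nuclease (-1.0, -1.0 and -0.80), BRCC3, a deubiquitinase of the BRCA1-A complex (-0.92, -0.98 and -0.90), and RMI1, a partner of BLM (-1.08, -1.07 and -0.62).

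Genes of the cell cycle and of p53 moved in the same libraries. Of 10 mitosis genes, 9, 9 and 10 fell in PBS, cNSF and fNSF cells (median log2 -0.87, -0.83 and -0.85), and of 15 S-phase genes, 9, 6 and 11 fell while 2, 2 and 1 rose (medians -0.29, -0.20 and -0.40). The lower share was 90%, 90% and 100% for mitosis genes and 60%, 40% and 73.3% for S-phase genes. Over all genes it was 26.9%, 26.8% and 22.7%. Of 10 p53 targets, 10, 9 and 10 rose (medians 1.36, 1.20 and 1.45), where 24.2%, 24.0% and 19.2% of all genes rose. Their part in the responses of the repair genes was not tested.

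Base composition also moved with the response. Over the 42 repair genes, the mean of the 3 log2 responses rose with the GC content of the longest transcript (Spearman's rho 0.69), as it did over the 12806 tested genes with an annotated transcript (rho 0.44). These points share the same libraries, and the repair genes are poorer in GC than most, with a median of 42.3% against 47.9%. The 19 genes that fell in all 3 pre-incubations had a median of 38.5% (36.2 to 55.4%), the 4 that rose 47% (41.3 to 53.1%). Below 40% GC, the median response was -0.69 for 13 repair genes and -0.40 for 2121 genes in all, and between 40 and 45% it was -0.23 for 14 and -0.19 for 2861. The members did not all follow this relation: DCLRE1C rose at 41.3% GC, and XRCC3 and H2AFX, the richest at over 60%, had mean responses below 0. The relation with gene span was weaker (rho -0.27, against -0.24 over all genes).

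**Figure D3:**
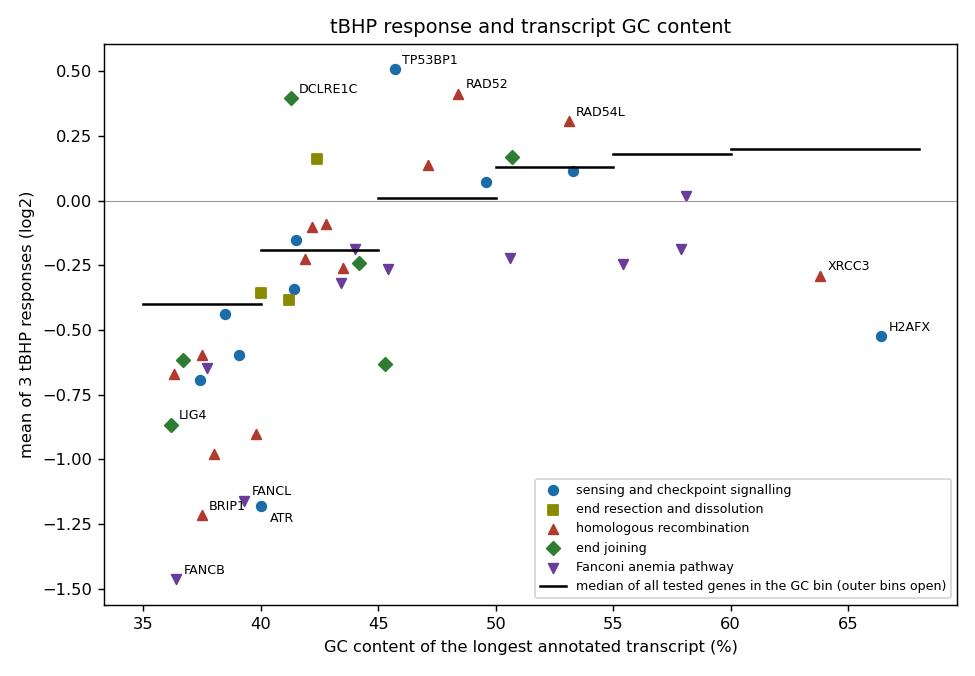
Mean of the 3 log2 responses to tBHP (y axis) against the GC content of the longest transcript in percent (x axis) for 42 repair genes by role, with lines at the median of all tested genes in each GC bin. Most members under 40% GC lie below the line of their bin at -0.40, and TP53BP1, RAD52 and DCLRE1C lie above theirs.

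When each library's trend with GC content and length was removed before the test, 21 repair genes fell and 7 rose in PBS cells, 17 fell and 7 rose in cNSF cells, and 21 fell and 6 rose in fNSF cells, with medians of -0.17, -0.13 and -0.17. The lower share was 50%, 40.5% and 50%, against 29.4%, 28.3% and 28.5% of all genes, and the higher share 16.7%, 16.7% and 14.3%, against 28.3%, 28.2% and 27.5%. Under this setting 15 genes (35.7%) were lower in all 3 pre-incubations, against 22.1% of all genes, and 4 (9.52%) higher in all 3, against 21.5%. Of the 19 genes named above as lower in all pre-incubations 10 kept that call: NBN, ATR, BARD1, BRIP1, XRCC2, PRKDC, LIG4, FANCA, FANCB and FANCL. H2AFX, XRCC3, FANCC, FANCE and FANCG were lower in all 3 under this setting only. FANCB had -1.05, -1.18 and -0.91, ATR -0.98, -0.74 and -0.81, and BRIP1 -0.78, -0.88 and -0.75, all still called. Smaller falls than before were also left for BARD1 (-0.69, -0.50 and -0.59), XRCC2 (-0.54, -0.60 and -0.61), PRKDC (-0.45, -0.51 and -0.48) and ATM (-0.17, -0.24 and -0.12, called in PBS and cNSF cells), while FANCA had larger ones (-0.45, -0.35 and -0.35). XRCC6 had 0.02, 0.11 and 0.05 and was called in cNSF cells. TP53BP1 (0.65, 0.62 and 0.59), RAD52 (0.33, 0.35 and 0.38) and DCLRE1C (0.74, 0.65 and 0.51) stayed higher in all 3, and EXO1 joined them. Whether the relation with GC content comes from the cells or from the libraries was not tested.

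The comparison of the HA preparations asks whether the length of the polymer alters these genes. Without tBHP, limma called 0 of the 42 between cNSF and fNSF cells, between cNSF and PBS cells, and between fNSF and PBS cells, with 0% of all genes called in each. At an unadjusted p under 0.05 there were 0 members, against 1.51%, 0.921% and 0.796% of all genes. This fit shares its spread over all libraries, and the median SD within groups was 0.206 with tBHP and 0.0761 without it. Its tests without tBHP are therefore conservative, and 0 calls are no sign that the groups are alike. DESeq2 and edgeR called 0 as well. A limma fit of only the compared groups called CHEK1 (-0.16) and BRCA2 (-0.23) lower and H2AFX (0.14) higher in cNSF than in fNSF cells, a share of 7.14% where 7.16% of all genes were called. The differences between cNSF and fNSF cells were small, from -0.23 (BRCA2) to 0.18 (XRCC3) with a median of -0.07, and 33 of 42 were below 0. The median of all genes was -0.02. For 11 genes (26.2%) the 3 cNSF libraries were all below the 3 fNSF libraries, against 17.1% of all genes: RAD50, NBN, ATR, CHEK1, RBBP8, BRCA2, XRCC2, PRKDC, DCLRE1C, XRCC4 and LIG4. For 2 genes (4.76%), MDC1 and XRCC3, they were all above, against 7.91%. With the GC and length trend removed, 22 of the 42 differences were below 0.

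After tBHP, limma again called 0 of the 42 repair genes between cNSF and fNSF cells (0% of all genes), and 11 (26.2%) had an unadjusted p under 0.05, as had 4412 of all genes (32.2%). edgeR called 0. DESeq2 called 4 (9.52%, against 5.79% of all genes), BRCA2, LIG4 and FANCB lower and XRCC3 higher in cNSF cells. The smallest p belonged to BRCA2, with 513, 557 and 413 normalized reads in cNSF cells and 686, 880 and 552 in fNSF cells, where the groups overlapped slightly (log2 -0.50 ± 0.14, limma adjusted p = 0.0981). LIG4 was lower in every cNSF library than in any fNSF library, as given above (-0.53 ± 0.16, adjusted p = 0.0981). XRCC3 had 436, 465 and 488 in cNSF cells and 375, 241 and 410 in fNSF cells, also without overlap (0.47 ± 0.14, adjusted p = 0.0981). H2AFX gave the largest difference, 0.79 ± 0.26, and its groups overlapped. Its size hung on single fNSF libraries, from 902 in replicate 2 to 3044 in replicate 3, and it was 1.19 without replicate 3.

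Of the 42 differences, 33 were below 0, with a median of -0.12, where the median of all genes was -0.03. For 3 genes (7.14%), RAD51B, LIG4 and FANCB, the cNSF libraries were all lower, against 8.29% of all genes, and for XRCC3 alone (2.38%) all higher, against 5.07%. These values hung on the 2 libraries of the fNSF group that stood apart. Without replicate 3, limma called 19 repair genes between cNSF and fNSF cells, 16 of them lower in cNSF cells, a share of 45.2% where 40.8% of all genes were called, and BRCA2 stood at -0.66, LIG4 at -0.63 and XRCC3 at 0.62. Without replicate 2 it called 0, the median was -0.07, and BRCA2 stood at -0.33, LIG4 at -0.30 and XRCC3 at 0.24. With the GC and length trend removed, 18 of the 42 differences were below 0 and the median was 0.02, with LIG4 at -0.24 (adjusted p = 0.192) and FANCB at -0.21 (adjusted p = 0.426).

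**Figure D4:**
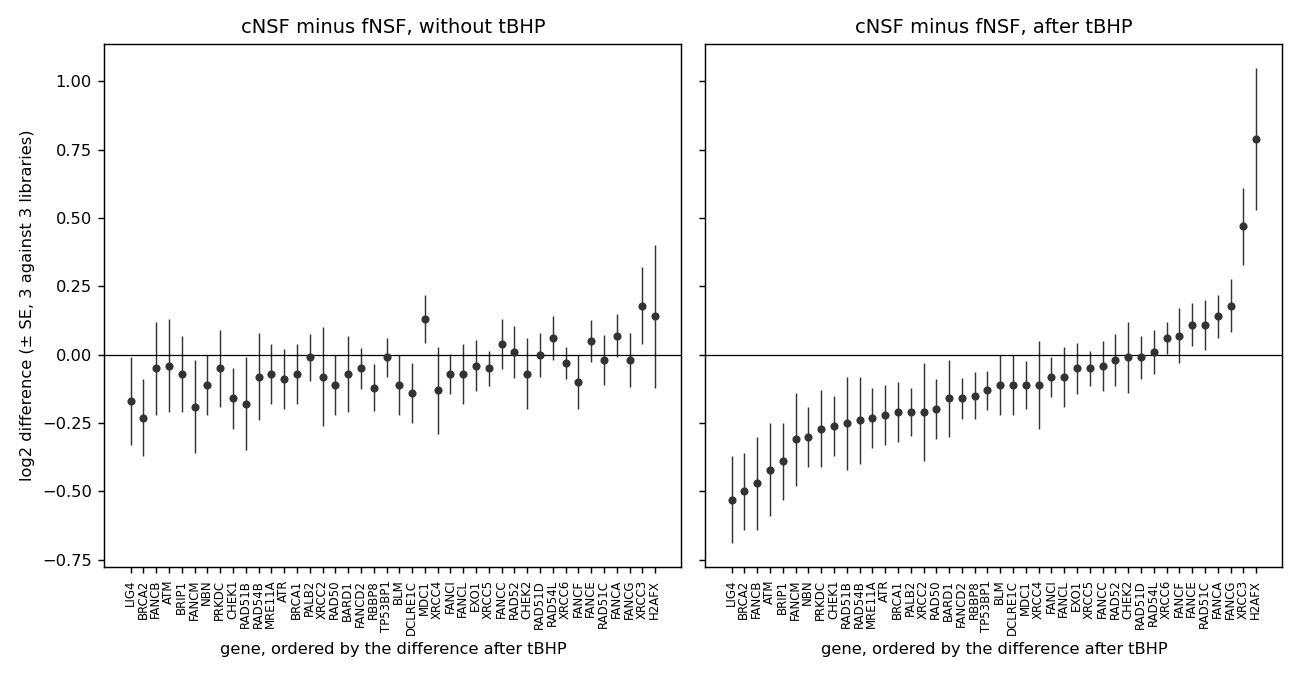
Log2 difference between cNSF and fNSF cells (y axis, ± SE, 3 against 3 libraries) of 42 repair genes (x axis), without tBHP on the left and after tBHP on the right, in the order of the values after tBHP. The SE comes from the limma fit of all 18 libraries. In both panels 33 of 42 points lie below 0, and the range widens from -0.23 to 0.18 without tBHP to -0.53 to 0.79 after it. In that fit no adjusted p was under 0.05.

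Against PBS cells after tBHP, 0 repair genes were called in cNSF cells (0% of all genes, none by DESeq2 or edgeR) and 0 in fNSF cells (0.139% of all genes). At an unadjusted p under 0.05 there were 4 (9.52%, against 8.64% of all genes) in cNSF cells and 8 (19%, against 22.7%) in fNSF cells. In fNSF cells DESeq2 called 1 (2.38%, against 3.30% of all genes) and edgeR 0 (0.263% of all genes). Both of these share the PBS libraries, and the fNSF libraries also enter the comparison with cNSF cells. In cNSF cells the differences from PBS centred on 0.01, and MDC1 had the smallest p, at 353, 353 and 293 normalized reads against 416, 376 and 392 (-0.25 ± 0.088, adjusted p = 0.536, -0.16 without the third cNSF library and -0.14 with the GC and length trend removed). In fNSF cells 33 of 42 differences were above 0 with a median of 0.09, but 20 were below 0 (median 0.01) with the GC and length trend removed, and 17 (median 0.02) without replicate 1 of the PBS group after tBHP. NBN was nearest to a call, at 1280, 1539 and 1068 against 851, 1119 and 927 (0.42 ± 0.11, adjusted p = 0.0868), and it was the gene that DESeq2 called. Without replicate 3 of the fNSF group 13 repair genes were called, 11 higher, a share of 31.0% where 29.4% of all genes were called, and without replicate 2 there were 0 and the median was 0.01.

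Only MDC1 (2.38%) had cNSF and PBS libraries that separated fully both without and with tBHP and in opposite directions, as had 0.680% of all genes.

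No difference between the responses to tBHP passed the test of the difference itself, with 0 of the 42 repair genes called between cNSF and PBS, fNSF and PBS, or cNSF and fNSF responses, 0% of all genes called in each, and none by DESeq2 or edgeR. The members at an unadjusted p under 0.05 numbered 2 (MDC1 and RAD51B, 4.76%), 2 (NBN and RAD51B, 4.76%) and 0, against 4.06%, 6.88% and 3.89% of all genes. For FANCB the response in cNSF cells minus that in fNSF cells was -0.42 ± 0.24, for LIG4 -0.36 ± 0.22 and for ATR in fNSF minus PBS cells 0.29 ± 0.15. After tBHP, fNSF replicate 2 held the highest values of these genes in its group. Without that library, 17 of the 42 cNSF minus fNSF differences in response were below 0 (median 0.02), in place of 30 (median -0.08).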

How the data were processed

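RNA-seq libraries of IMR90 cells were grouped by the submitters' labels (6 groups of 3). The authors made them with the TruSeq RNA V2 kit, which does not keep the strand, sequenced single-end reads and, per the submitters' processing notes, used Trimmomatic 0.32, STAR 2.5.2b, featureCounts (Subread 1.5.0-p3), DESeq2 and GRCh38.p7. The annotation is not given in the sources used here. The deposited signal of a gene is its reads over the size factor that DESeq2 set for the library, called normalized reads here, and it can shift with the composition of a library. In every library 100% of values were whole multiples of 1 read (tolerance 0.01 of a read), and the reads were recovered. The p-values, q-values and ranks of the authors in the table were not used.

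Log2 values (pseudocount 1) of genes with a mean of at least 10 were fitted with limma 3.58.1 in R 4.3.3 (mean-variance trend, 1 coefficient per group, all 18 libraries, two-sided, Benjamini-Hochberg adjustment over 13686 genes, threshold 0.05), so fold changes of low genes are understated. Scripts were tested on simulated counts with the same dispersion in all groups, no GC trend and no outlying library, unlike these data. edgeR 4.0.16 (quasi-likelihood) and DESeq2 1.42.0 were run on the recovered reads as alternatives, beside other pseudocounts (0.1 and 5), no filter, a minimum mean of 50, rescaled and quantile normalized values, a replicate block, only the compared groups, each library left out, and removal of each library's trend with GC content and length (splines with 5 degrees of freedom, GENCODE release 29). The libraries held 20261103 to 26287660 reads. Counts of replicates differed by more than read sampling alone gives, with chi-squares of 1.47 to 70.4 per degree of freedom in 18 pairs. How far depth limits the precision of single genes was not tested.

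The members and lists were chosen with earlier results of these data known. Values in every library are given for the 3 largest mean falls and rises, the leading member of each role, and the 3 members nearest to a call between cNSF and fNSF cells after tBHP. NBN, H2AFX, MDC1 and the members with special mention were named after their values were seen. Gene coordinates and overlaps come from GENCODE release 29 and promoter windows from RefSeq (GRCh38.p14). Protein sequences were not used here, and 1 gene of the list of other repair genes is not reported here.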

Additional observations from a re-analysis of the deposited data

Results flagged for a closer look

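MDC1 was the only member whose cNSF and PBS libraries separated fully both without and with tBHP, and in opposite directions (1 of 42, 2.38%, against 0.680% of all genes). Without tBHP the cNSF libraries held 352, 368 and 350 normalized reads and the PBS libraries 311, 325 and 319, so all cNSF libraries were higher (log2 0.16 ± 0.088). After tBHP the cNSF libraries held 353, 353 and 293 and the PBS libraries 416, 376 and 392, so all were lower (-0.25 ± 0.088, -0.16 without cNSF replicate 3 and -0.14 with the GC and length trend removed). The response in cNSF cells minus that in PBS cells was -0.41 ± 0.13 (limma, unadjusted p = 0.00403), and it failed the adjustment over all genes (adjusted p = 0.999). Without cNSF replicate 3 after tBHP it was -0.32, and with the GC and length trend removed -0.27 (unadjusted p = 0.00822). Part of the exonic bases of MDC1 (8.69%) lies under an antisense RNA.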

How the results depend on the processing

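The number of repair genes lower after tBHP in fNSF cells was 14 (33.3%) in place of 23 when only the compared groups were fitted, where 16.7% of all genes were lower. Such a fit called 3 genes (7.14%, against 7.16% of all genes) between cNSF and fNSF cells without tBHP in place of 0. DESeq2 called 4 between cNSF and fNSF cells and 1 between fNSF and PBS cells after tBHP, in place of 0. These were 9.52% and 2.38%, against 5.79% and 3.30% of all genes. Leaving out 1 library at a time gave 21 to 26 lower and 5 to 7 higher in PBS cells, 21 to 27 and 4 to 6 in cNSF cells, 17 to 26 and 4 to 5 in fNSF cells, 0 to 19 calls between cNSF and fNSF cells and 0 to 13 between fNSF and PBS cells after tBHP, of which 19 and 13 came without fNSF+tBHP replicate 3, and 1 call in the last came without PBS+tBHP replicate 2. With the GC and length trend removed, MRE11A, RAD50 and BRCA1 turned in cNSF cells, to 0.01 each, and of the 86 called responses of single genes 61 kept their call and 22 lost it with the same sign. Of the same 86, edgeR lost 9, no filter 7, quantile normalization 6 and only the compared groups 10, while both pseudocounts, the minimum mean of 50, rescaling and DESeq2 lost 0. Over the 18 left-out libraries, 71 of 1548 calls were lost. With the replicate block, 24, 25 and 25 genes fell in PBS, cNSF and fNSF cells, and all 86 calls were kept. Of all genes, 27.7%, 27.7% and 23.7% fell under that setting. The deviations of same-numbered libraries correlated by -0.119 to 0.333 (45 pairs, 7 over 0.1), and 10 of 18 libraries correlated best with a library of their own number. Most pairs were not over 0.1, and the numbers were not taken as pairs, but these values do not exclude pairing.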
